A study of Mus musculus with 12 samples.

Results

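Neat1, Malat1 and Frmd8 lie next to each other on mouse chromosome 19 and are read in the same direction, so that Frmd8 comes first, then Neat1, then Malat1. This account follows open chromatin over the 3 genes, peak by peak, in SgshKO mice and wild-type (WT) mice. The members are all peaks that the deposited tables name after one of these genes: 62 of 91770 peaks in microglia, 32 of 107627 in NeuN+ nuclei and 94 of 82577 in Olig2+ nuclei, or 188 of 281974 in all. In microglia, 38 of the members were named Neat1, 20 Malat1 and 4 Frmd8. For NeuN+ the counts were 14, 16 and 2, and for Olig2+ they were 43, 30 and 21. The genes were chosen from the measured difference between SgshKO and WT in these same libraries, so their genotype differences are given as a description, with no test.

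ATAC-seq, in which a transposase inserts adapters into open DNA, was run on forebrain of C57BL/6 mice at 4 months of age. SgshKO animals lack a working Sgsh gene, which encodes the lysosomal heparan sulfate-degrading enzyme N-sulfoglucosamine sulfohydrolase, and WT animals carry it. Live microglia were sorted by CD11b, CX3CR1 and low CD45, while NeuN+ nuclei (a neuronal protein) and Olig2+ nuclei (an oligodendrocyte-lineage protein) were sorted after light formaldehyde fixation. Each sort had 2 WT and 2 SgshKO libraries, 12 libraries in 6 groups. The labels name neither the allele nor sex, and do not say whether the libraries of a group came from separate or pooled animals, so the spread between libraries may be technical. In sorted populations, a change within cells and a change in the mix of cells cannot be told apart.

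Neat1 is a long noncoding RNA that builds paraspeckles, nuclear bodies that hold RNA-binding proteins. It is made as a short and a long transcript from the same start site, and only the long form can assemble a paraspeckle. Malat1 is an abundant long noncoding RNA found at nuclear speckles, the storage sites of splicing factors, and the 3′ end of its transcript is cut off as the small RNA mascRNA. Frmd8 encodes a FERM-domain protein, also called iTAP, that holds the iRhom proteins at the cell surface and so supports the protease ADAM17, which sheds TNF.

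In RefSeq's GRCm38.p6 annotation, which shares its coordinates with the mm10 build named in the submitters' processing notes, all 3 genes are on the minus strand. Frmd8 spans chr19:5850974-5875269, Neat1 chr19:5824708-5845480 and Malat1 chr19:5795690-5802672. Distances are in bp from the start site, negative for upstream. A peak takes the name of the nearest start site, so 12 of the Neat1 peaks in Olig2+ nuclei lie inside Frmd8. For the same reason the peaks over the far end of Malat1 are named for mascRNA and are not members.

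The promoters of Malat1 and Frmd8 are shown because the start-site peaks described below cover them. Each runs from 250 bases before to 50 bases after the RefSeq start site, 5′ to 3′ on the gene's own strand. They are chr19:5802623-5802922 for Malat1 and chr19:5875159-5875458 for Frmd8, whose start site here, the one the deposited distances use, lies inside the outer end of the gene's annotated span. Capitals mark a motif match.
Malat1: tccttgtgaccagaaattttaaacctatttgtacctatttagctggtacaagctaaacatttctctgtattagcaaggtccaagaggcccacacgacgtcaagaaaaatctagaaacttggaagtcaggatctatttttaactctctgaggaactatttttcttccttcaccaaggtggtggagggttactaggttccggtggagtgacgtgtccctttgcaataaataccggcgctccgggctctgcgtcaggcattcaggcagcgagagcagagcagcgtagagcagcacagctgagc
Frmd8: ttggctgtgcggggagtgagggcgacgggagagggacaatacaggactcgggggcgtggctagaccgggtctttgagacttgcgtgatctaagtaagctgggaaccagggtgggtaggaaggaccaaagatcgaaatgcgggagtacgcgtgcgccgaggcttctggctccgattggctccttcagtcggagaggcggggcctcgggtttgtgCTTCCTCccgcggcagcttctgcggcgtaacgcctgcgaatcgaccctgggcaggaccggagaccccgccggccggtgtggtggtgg
The microglial start-site peak covered 121 of the 300 Malat1 bases and 240 of the 300 Frmd8 bases. Searched on both strands, CACGTG (the E-box read by MITF, TFEB and TFE3) occurred in neither window, and neither did TCATGTG (the M-box) or TGANTCA (AP-1). GAGGAAG, a PU.1 core, matched in Frmd8 alone, on the reverse strand, with its first base 37 bases before the start site. Among 32851 mouse promoter windows of 300 bases, 7.15% held CACGTG, 3.77% TCATGTG, 7.81% TGANTCA and 13.6% GAGGAAG.

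Microglial libraries held 10771659 to 11804222 tags, NeuN+ libraries 14326703 to 17706971 and Olig2+ libraries 15044194 to 19555924. The share of tags in peaks differed between genotypes: it was 55.8% and 48.7% in WT microglia and 67.4% and 53.7% in SgshKO microglia, 26.7% and 25.9% in WT against 21.5% and 21.2% in SgshKO for NeuN+, and 30.9% to 31.8% in all Olig2+ libraries. Peaks near the start sites of all 6 microglial marker genes were present in the microglia table, of all 5 neuronal ones in the NeuN+ table and of all 6 oligodendrocyte ones in the Olig2+ table. Microglial libraries held 1881 and 1666 summed microglial marker tags in WT and 2112 and 1593 in SgshKO. In the same order, oligodendrocyte marker tags were 219 and 206 against 275 and 245, and neuronal ones 88.15 and 102 against 112 and 74.3. Endothelial ones were 184 and 158 against 160 and 104, and astrocyte ones 114 and 74.55 against 75.3 and 64.1. Blood myeloid ones were 18.15 and 22.03 against 22.51 and 9.28. Summed neuronal marker tags were 872 and 818 in WT NeuN+ libraries and 468 and 481 in SgshKO ones. In the same order, NeuN+ libraries held 119 and 99.4 against 55.8 and 54.6 oligodendrocyte marker tags, and 54.4 and 48 against 34.2 and 32.4 microglial ones. The Olig2+ libraries held 1893 and 1871 oligodendrocyte marker tags in WT and 1670 and 1638 in SgshKO, and also 373 to 440 neuronal ones. They held 240 and 233 microglial marker tags in WT and 271 and 284 in SgshKO, from peaks at 2 of the 6 genes. The part of these marker levels in the results was not tested. The start-site peak of Sgsh was present in all 12 libraries, which does not check the labels because the labels do not place the deleted part of the gene.

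Values are normalised tags, the tags in a peak per 10000000 tags of the library. A log2 change is the SgshKO mean minus the WT mean of log2(tags + 1), with its standard error from limma, and a peak counts as called when its p, adjusted by Benjamini-Hochberg over the whole table, is under 0.05. In microglia, 43 member peaks were called higher and 0 lower, while of all microglial peaks 5.05% were called higher and 2.33% lower. Among NeuN+ peaks, 0 members were called higher and 10 lower, against 10.2% and 19.6% of all peaks. In Olig2+ nuclei, 3 were called higher and 14 lower, against 8.17% and 11.7% of all peaks. Since the same contrast chose the genes, nothing is read from these counts beyond where the called peaks lie, which the plot of changes along the locus shows.

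**Figure D1:**
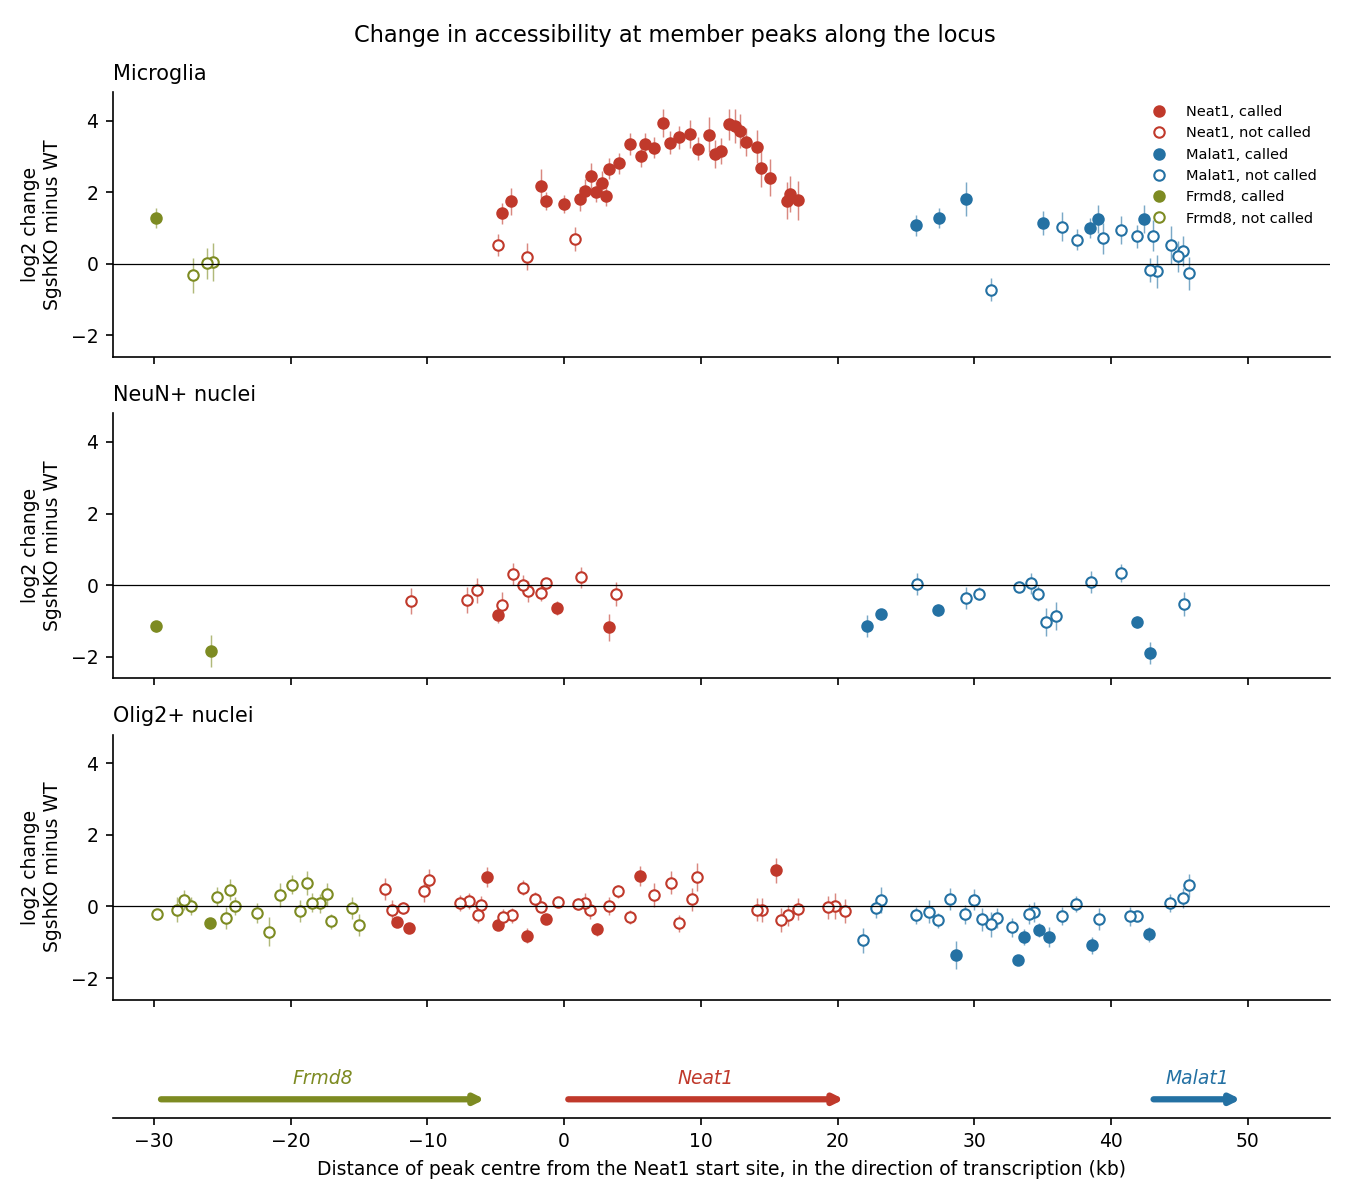
Change in accessibility (log2, SgshKO minus WT, vertical axis; bars are standard errors) of every member peak against its distance in kb from the Neat1 start site in the direction of transcription, in 3 sorts with 2 libraries per genotype. Filled points were called at an adjusted p under 0.05 and open points were not; arrows mark the genes. In microglia the Neat1 peaks form an arch with its top at 3.94, while the nuclei sorts hold no Neat1 peak above 1.01.

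Neat1 in microglia was measured as more open in SgshKO from its upstream region to deep into the long transcript. Of its 38 peaks, 35 were called higher, against 5.05% of all microglial peaks. In 37 both SgshKO libraries lay above both WT libraries. How often that holds over all peaks was not counted, so nothing is read from it. No other gene in the microglia table had more peaks called higher, and 16 of the 100 largest increases in the table were Neat1 peaks. Summed over the 38 peaks, WT libraries held 2145 and 1741 normalised tags and SgshKO libraries 13331 and 7508. The SgshKO libraries lay far above both WT libraries and also far apart from each other, and replicate 1, the higher, is the library with 67.4% of its tags in peaks.

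The rise was graded along the gene. The start-site peak (-38 bp) held 276 and 232 normalised tags in WT and 889 and 744 in SgshKO. Both SgshKO libraries were above both WT libraries and close to each other, with a log2 change of 1.68 ± 0.25 (SE). The tallest Neat1 peak lay upstream (-1300 bp, chr19:5846680-5846881, intergenic), with 383 and 278 tags in WT and 1353 and 888 in SgshKO, a log2 change of 1.75 ± 0.25. Here too the groups did not overlap.

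Within the exon shared by both isoforms, the log2 changes of the 7 peaks ran from 0.70 to 2.45 with a median of 2.00, and 6 were called. The first of them, 771 bp into the transcript, was the exception, with 60.5 and 50.0 normalised tags in WT and 105 and 77.0 in SgshKO. Of the 2 peaks annotated to the end of the short isoform, that at 4028 bp held 136 and 88.1 tags in WT and 1091 and 547 in SgshKO. Its log2 change was 2.81 ± 0.29, and the other, at 3291 bp, changed by 2.66. The last peak annotated to the shared exon lies at 3053 bp, so the peak at 4028 bp may lie past the short isoform.

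The largest differences lay in peaks annotated to the long, paraspeckle-forming isoform alone, here named the long-only stretch. All 22 of these peaks were called higher, with log2 changes from 1.76 to 3.94 and a median of 3.30. The peak at 4823 bp held 90.7 and 54.2 normalised tags in WT and 1018 and 512 in SgshKO. The peak at 7208 bp (chr19:5838148-5838393), the largest log2 change of any member, held 12.1 and 7.62 tags in WT, which are 14 and 9 reads, and 233 and 113 in SgshKO. Its log2 change was 3.94 ± 0.39. Summed over the 22 peaks, the WT libraries held 474 and 407 tags and the SgshKO libraries 6187 and 3127, so that SgshKO was 10.6 times WT in the ratio of mean sums. The same ratio was 7.03 over the 2 peaks annotated to the end of the short isoform, 3.99 over the shared exon and 3.22 at the start site.

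Beyond the peak at 12868 bp, at 3.71, the changes declined. The last microglial peak, at 17138 bp, held 6.05 and 1.69 normalised tags in WT, or 7 and 2 reads, and 14.7 and 13.0 in SgshKO, a log2 change of 1.77 ± 0.54. On these few reads the change was 1.07 without WT replicate 2 and 1.13 with a pseudocount of 5. In WT microglia the long-only stretch held 83.9 and 72.2 tags per kb of peak, less than the 653 and 550 of the start site, and in SgshKO it held 1096 and 554.

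**Figure D2:**
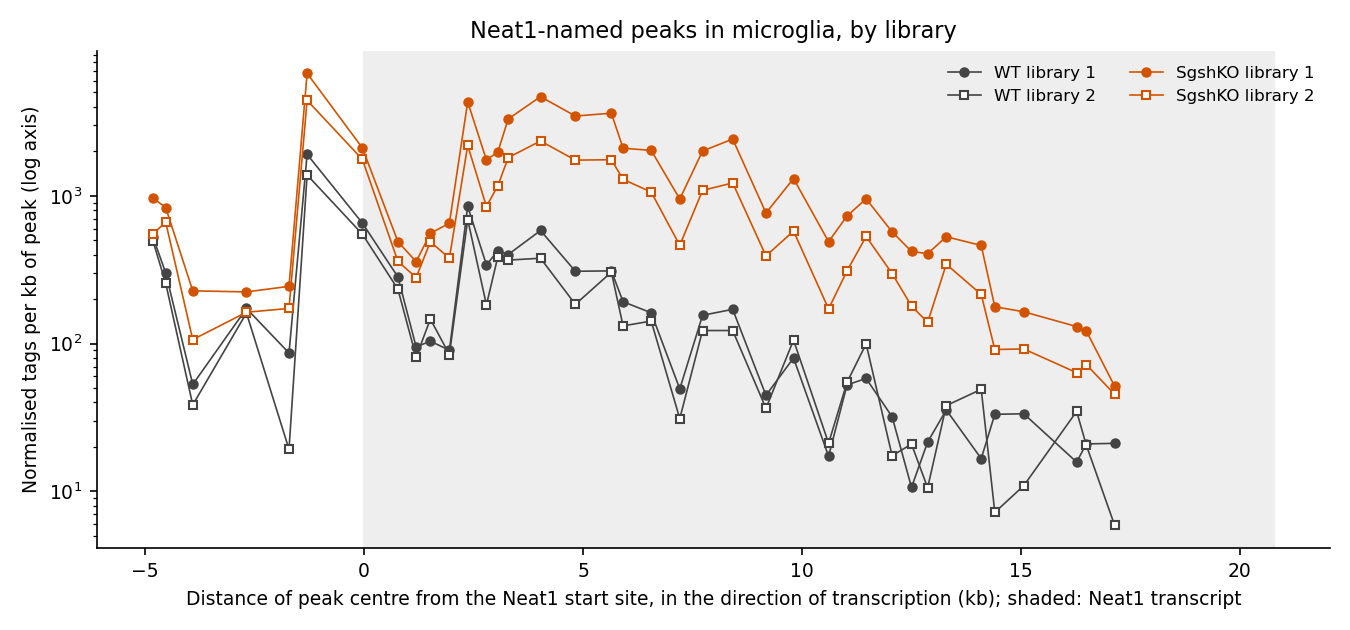
Normalised tags per kb of peak (log axis) in each of the 38 Neat1 peaks in microglia, against distance in kb from the start site, for 2 WT and 2 SgshKO libraries; shading marks the transcript. The curves of the 2 genotypes are nearest around the peaks at -2685 bp and -4818 bp and farthest apart between about 5 and 15 kb, and SgshKO replicate 1 lies above replicate 2 throughout.

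By median log2 change, the shared exon, the end of the short isoform and the long-only stretch kept this rising order under each alternative that was run. The median log2 change of the long-only peaks was lowest without SgshKO replicate 1, at 2.82, where the shared exon had 1.64, and highest without SgshKO replicate 2, at 3.76 against 2.28. Within-peak scaling, which removes the difference in the share of tags in peaks, gave 3.10 and 1.79. Leaving out WT replicate 2 lowered the number of microglial members called to 26, and leaving out WT replicate 1 to 31. The whole microglia table was split 4631 higher to 2134 lower, but 5103 to 9419 with within-peak scaling, which moved the median log2 change of all peaks from -0.08 to -0.28, and 5907 to 12943 without SgshKO replicate 1. Members were called 43 higher to 1 lower with within-peak scaling and 39 to 1 without that library.

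Upstream, the 6 Neat1 peaks between the start site and the end of Frmd8 were uneven. The peaks at -1714 bp and -3912 bp changed in log2 by 2.17 and 1.74. The peak at -4530 bp, annotated to the end of Frmd8 but lying past the gene's span, changed by 1.41. The peak at -2685 bp held 35.4 and 33.0 normalised tags in WT and 45.9 and 33.4 in SgshKO, so the groups overlapped, and it was not called. The neighbouring peak at -4818 bp, with 106 and 99.96 in WT and 196 and 112 in SgshKO, was not called either, at 0.52 ± 0.31. That change was 0.12 without SgshKO replicate 1 and 0.92 without SgshKO replicate 2.

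Malat1 in microglia showed no such pattern over the part of the transcript that its named peaks cover, which leaves out the far end. Its start-site peak (29 bp) held 52.7 and 61.8 normalised tags in WT and 44.2 and 57.6 in SgshKO, overlapping ranges with a log2 change of -0.18 ± 0.35. The 6 peaks over its exon had log2 changes between -0.27 and 0.78, and 0 were called. The differences lay upstream: of 11 intergenic peaks between Malat1 and Neat1, 6 were called higher, and a 7th Malat1 call was the peak at -396 bp (1.26 ± 0.39).

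The tallest of these intergenic peaks, at -15418 bp (chr19:5817977-5818203), held 209 and 184 normalised tags in WT and 668 and 343 in SgshKO, a log2 change of 1.28 ± 0.28. It was 0.81 without SgshKO replicate 1, the higher library, and 0.85 after quantile normalization. One peak of the 11 went the other way. At -11593 bp, WT held 109 and 108 tags and SgshKO 76.2 and 55.7, a log2 change of -0.72 ± 0.32 that was not called, between neighbours on both sides that were higher.

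At Frmd8 in microglia, the 1 called peak of 4 was its promoter. The start-site peak (-116 bp) held 113 and 110 normalised tags in WT and 325 and 232 in SgshKO, without overlap and with a log2 change of 1.29 ± 0.28. The 3 peaks in intron 3 had log2 changes from -0.32 to 0.04, overlapped between genotypes and held at most 30 reads in a library. Start-site peaks as a class leaned the same way in this table: of 13129 genes with one, 12.8% were called higher and 0.929% lower.

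In NeuN+ nuclei, the promoters of Malat1 and Frmd8 were less open in SgshKO. The Malat1 start-site peak (13 bp) held 18.1 and 16.9 normalised tags in WT and 4.19 and 3.81 in SgshKO, or 32 and 30 reads against 6 and 6. Its log2 change of -1.89 ± 0.31, or -1.32 with a pseudocount of 5, was the most negative of any member. The peak at -898 bp fell by 1.03 on the log2 scale. At the Frmd8 start site (-95 bp) WT held 74.2 and 75.7 tags and SgshKO 32.8 and 33.6, a log2 change of -1.15 ± 0.16.

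Neat1 in NeuN+ nuclei differed by less near its start site. Of its 14 peaks 3 were called lower, against 19.6% of all NeuN+ peaks. Besides the peak nearest the start site, the lower calls were at -4862 bp (-0.85 ± 0.20) and 3316 bp (-1.17 ± 0.38). The latter rests on 13 and 18 reads in WT and 6 and 4 in SgshKO. The peak nearest its start site (-520 bp) held 40.2 and 36.7 normalised tags in WT and 23.03 and 25.4 in SgshKO, a log2 change of -0.65 ± 0.20. The peak at -1320 bp held 70.2 and 74.0 in WT and 69.8 and 79.4 in SgshKO, and the groups overlapped. Its log2 change was 0.05, and 0.34 with within-peak scaling and 0.52 with quantile normalization. The NeuN+ table held 0 Neat1 peaks beyond 3798 bp, and none annotated to the long-only stretch.

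Between the genes, the Malat1 peak at -9573 bp, the tallest NeuN+ member, also overlapped between genotypes, with 137 and 115 normalised tags in WT and 128 and 112 in SgshKO. Its log2 change was -0.07, but 0.23 with within-peak scaling, 0.15 with median of ratios and 0.49 with quantile normalization, so no direction is given for it. Calls were made at -15461, -19637 and -20684 bp, all lower. The most positive log2 change of any NeuN+ member was 0.34 ± 0.24, at -2082 bp. It was 0.62 with within-peak scaling, 0.60 with edgeR and 0.11 to 0.56 on leaving out a library.

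Lower start-site peaks were the rule in this table, in which 55.1% of 13396 genes' start-site peaks were called lower and 1.49% higher, and the median log2 change of all peaks was -0.23. Within-peak scaling moved that median to 0.05 and left 7 members called lower, and quantile normalization, which moved it to -0.08, gave 2 members called higher and 4 lower. The whole table was split 11008 higher to 21097 lower, but 18961 to 9534 with within-peak scaling, 16165 to 11835 with median of ratios and 10349 to 6352 with quantile normalization. The directions at the start-site peaks of Malat1, Frmd8 and Neat1 were the same under all of these. DESeq2 on the recovered reads called 1 member, and the counts were 5 and 6 without WT replicate 1 or 2 and 0 without either SgshKO library, where limma called 0 of all peaks, although 33265 and 32556 of them, 9 and 10 members among these, had an unadjusted p under 0.05.

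Of the 43 Neat1 peaks in Olig2+ nuclei, 3 were called higher and 6 lower, against 8.17% and 11.7% of all Olig2+ peaks. The most negative log2 change of any member in this sort was at an intergenic peak upstream of Malat1. At -9581 bp (chr19:5812150-5812357) WT held 330 and 384 normalised tags and SgshKO 127 and 126. The replicates were close and the groups far apart, with a log2 change of -1.49 ± 0.09. It was the tallest Malat1 peak of this sort, and all 6 intergenic calls at Malat1 were lower. Microglia had 0 member peaks at that position, and in NeuN+ nuclei it is the peak at -9573 bp.

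The Malat1 start-site peak (-19 bp) in Olig2+ nuclei held 41.5 and 37.8 normalised tags in WT and 20.9 and 24.6 in SgshKO, a log2 change of -0.78 ± 0.21. Its 3 exon peaks had changes from 0.10 to 0.59 and were not called. The Frmd8 start-site peak (-81 bp) held 72.1 and 70.1 in WT and 65.2 and 56.5 in SgshKO, a change of -0.22 ± 0.15. Of the 20 peaks inside Frmd8 that carry its name, 1 was called, at 3799 bp, with 66.4 and 89.0 in WT and 55.95 and 54.5 in SgshKO.

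Over Neat1 in Olig2+ nuclei, the peak nearest the start site (-426 bp) held 218 and 204 normalised tags in WT and 239 and 225 in SgshKO, a log2 change of 0.14 ± 0.09 that was not called. The peak at -1297 bp held 348 and 329 in WT and 276 and 252 in SgshKO, a change of -0.36 ± 0.08 that was called. Further upstream, the peak at -2684 bp held 46.7 and 42.4 in WT and 23.98 and 25.9 in SgshKO, a change of -0.81 ± 0.20. In the exon shared by both isoforms, the 1 called peak of 4 lay at 2408 bp, where WT held 54.5 and 55.2 and SgshKO held 31.4 and 39.2 (-0.63 ± 0.18). The 16 peaks of the long-only stretch had a median change of -0.05. Of these, 2 were called higher, at 5579 and 15531 bp, and the latter rests on 9 and 10 reads in WT and 17 and 17 in SgshKO (1.01 ± 0.34).

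A tall Neat1-named peak within intron 9 of Frmd8 (-11322 bp, chr19:5856693-5856911) held 296 and 289 normalised tags in WT and 187 and 198 in SgshKO, a log2 change of -0.60 ± 0.09. At start sites over this table, 16% of 11970 genes were called higher and 7.69% lower. The whole table was split 6743 higher to 9627 lower, and 8832 to 7802 with median of ratios and 7343 to 6453 with quantile normalization. DESeq2 on the recovered reads called 2 members, and 5 and 8 were called without WT replicate 1 or 2.

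**Figure D3:**
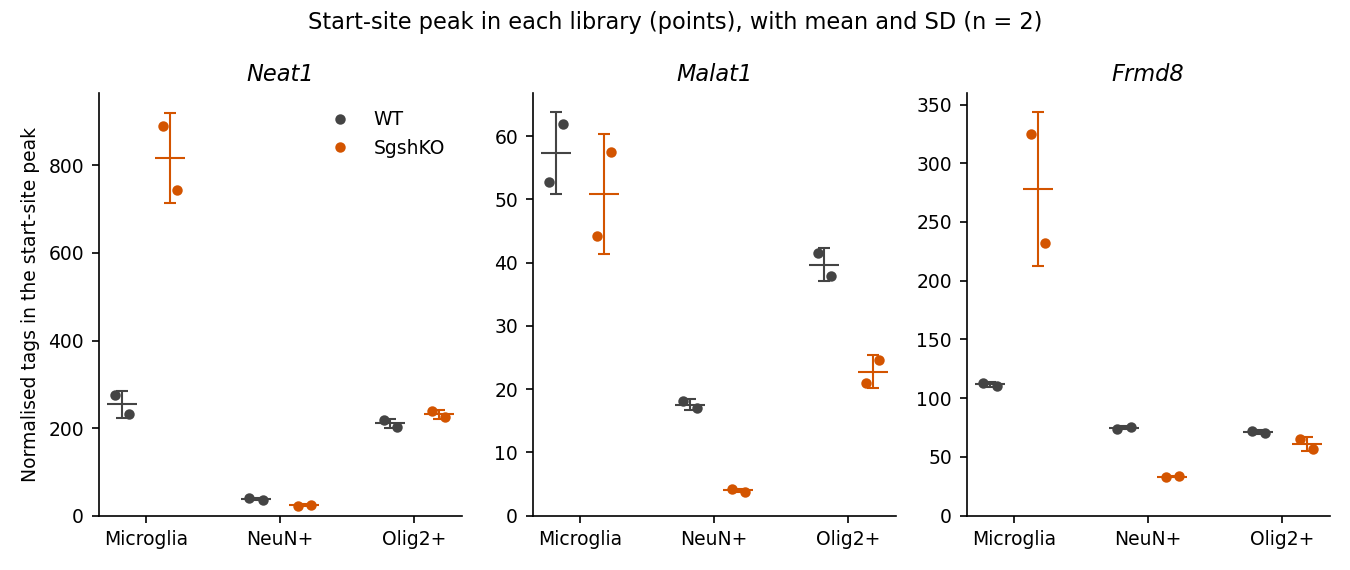
Normalised tags in the peak nearest each start site, per library (points), with mean and SD (bars, n = 2 per group), for WT and SgshKO in 3 sorts; the Neat1 peak lies at -38 bp in microglia and at -520 and -426 bp in the nuclei, so its levels are not compared between sorts. Neat1 and Frmd8 are higher in SgshKO microglia, and Malat1 is lower in both sorts of SgshKO nuclei.

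WT libraries were then compared between sorts at the 12 member peaks that overlapped one-to-one in the 3 tables (5 Malat1, 6 Neat1, 1 Frmd8). The choice of genes did not use contrasts between sorts, but it did use these WT libraries. One limma model of 12 libraries over 16740 matched peaks was used. Tags were taken over the width of the peak in its own table, with no correction for width. Live cells against fixed nuclei cannot be told apart from cell type in any contrast with microglia. The Neat1 peak nearest the start site had no match in all 3 tables.

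Most matched Neat1 and Malat1 peaks held fewer tags in WT NeuN+ than in WT Olig2+ nuclei. Of the 12 members, 9 were called lower and 1 higher, against 30.4% and 19% of all matched peaks, and their median log2 difference was -0.99 against -0.15 for all. The upstream Neat1 peak (-1300 bp in microglia) held 70.2 and 74.0 normalised tags in NeuN+ and 348 and 329 in Olig2+ nuclei, a log2 difference of -2.21 ± 0.17 (limma adjusted p = 2.87e-10). At the Malat1 start site the levels were 18.1 and 16.9 against 41.5 and 37.8, a difference of -1.13 ± 0.27 (limma adjusted p = 0.00113). The Malat1 peak at -13420 bp, also called lower, spans 245 bp in NeuN+ and 402 bp in Olig2+ nuclei. It held 10.2 and 10.7 tags against 19.7 and 18.9, and nothing is read from this call. The exception was the Malat1 intergenic peak at -15418 bp, with 70.8 and 60.4 in NeuN+ and 36.3 and 44.0 in Olig2+ nuclei, whose difference of 0.70 ± 0.24 had a limma adjusted p of 0.0175, and of 0.134 and 0.141 without replicate 1 of either group. The Frmd8 start-site peak differed by 0.07 ± 0.17, a difference that was not called.

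Set against WT NeuN+ nuclei, WT microglia were called higher at 9 of the 12 and lower at 1, against 46.5% and 19.3% of all matched peaks. The median log2 difference was 1.42, against 0.47 for all. These values are not corrected for the share of tags in peaks, 55.8% and 48.7% in WT microglia against 26.7% and 25.9% in WT NeuN+ nuclei. At the end of the short Neat1 isoform (3291 bp), microglia held 93.3 and 85.6 normalised tags and NeuN+ nuclei 7.36 and 10.2, a difference of 3.22 ± 0.29 (limma adjusted p = 1.85e-09). The 1 lower call was the Neat1 peak at -1714 bp, with 19.01 and 4.24 in microglia against 37.4 and 31.1. It rests on 22 and 5 reads in WT microglia, against 62 and 41 in SgshKO microglia. Each table holds 1 peak set for both genotypes, so a peak that is low in WT can be listed through SgshKO, and nothing is read from this call. Frmd8 was 0.57 ± 0.18 higher in microglia (limma adjusted p = 0.0067), near the median of all peaks, and this difference was -0.41 with within-peak scaling and 0.07 with median of ratios, so no direction is given for it.

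Against WT Olig2+ nuclei, WT microglia differed in both directions. They were higher at 4 members and lower at 3, against 42.7% and 24.5% of all matched peaks. The Malat1 peak at -15418 bp was 2.27 ± 0.24 higher in log2 in microglia (limma adjusted p = 1.51e-08). The 3 lower calls were the Malat1 peaks at -871 and -13420 bp and the Neat1 peak at -1714 bp. The one at -13420 bp rests on 8 and 6 reads in WT microglia, against 28 and 24 in SgshKO microglia, so that nothing is read from it or from -1714 bp, as above. The upstream Neat1 peak did not differ beyond its spread, at 383 and 278 against 348 and 329 (-0.05 ± 0.17), and the sign of this difference varied with the scaling. On library totals, then, the order at this peak was microglia and Olig2+ nuclei above NeuN+ nuclei. The first 2 were not separated on that scaling, which leaves the share of tags in peaks uncorrected. That share was 55.8% and 48.7% in WT microglia and 31.8% in each WT Olig2+ library. Whether these 2 sorts separate at this peak may therefore depend on the scaling.

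**Figure D4:**
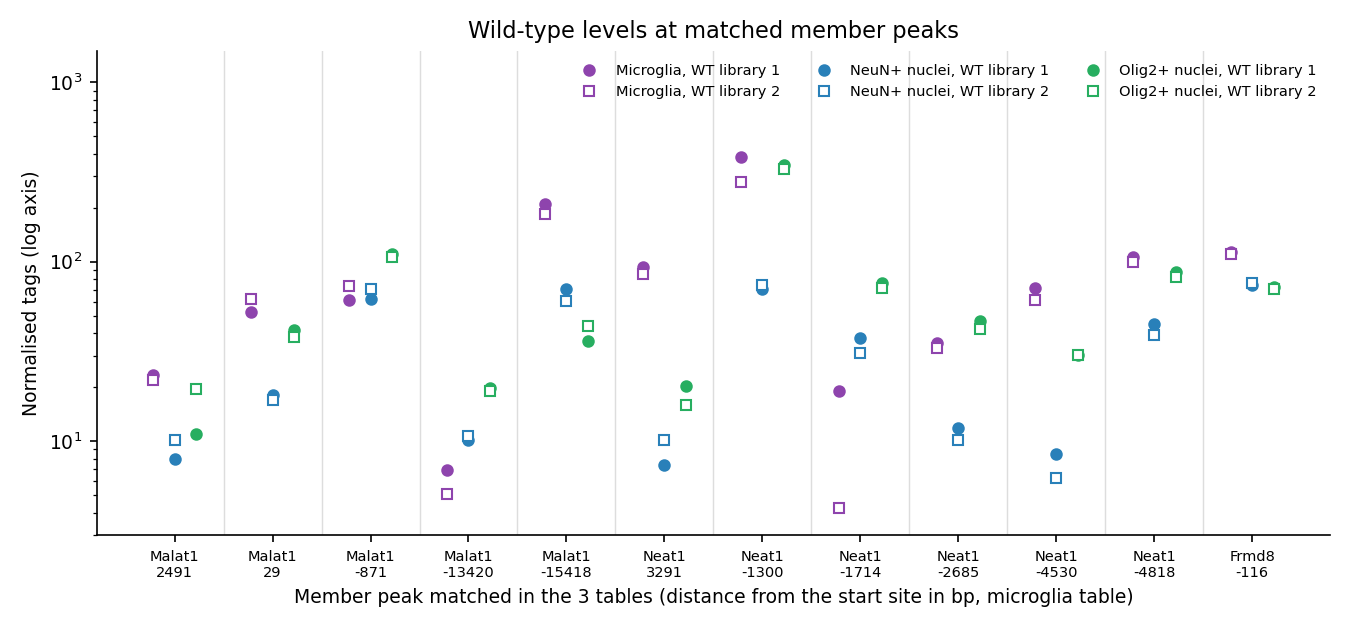
Normalised tags (log axis) in each WT library of the 3 sorts at the 12 member peaks matched between tables, ordered by gene and labelled by distance in bp from the start site in the microglia table. Both NeuN+ libraries lie below all others at 5 of the 6 Neat1 peaks, the exception being -1714 bp, and both microglial libraries lie above all others at the Malat1 peak at -15418 bp.

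Proteins that work with these RNAs were taken from fixed lists, at 1 start-site peak per gene. Of 15 paraspeckle protein genes, 1 was called higher in microglia, Smarca4, a chromatin remodelling ATPase, with 75.2 and 72.0 normalised tags in WT and 188 and 252 in SgshKO. In NeuN+ nuclei 10 were called lower and 0 higher, and in Olig2+ nuclei 1 was called higher (Hnrnph3) and 2 lower (Hnrnpa1 and Sfpq). Over all start-site peaks, 12.8% were called higher in microglia, 55.1% lower in NeuN+ nuclei, and 16% higher and 7.69% lower in Olig2+ nuclei. The median log2 changes of 0.50, -0.43 and 0.03 compare with 0.20, -0.57 and 0.07 over all start-site peaks of the respective tables. The core paraspeckle genes Nono, Sfpq and Pspc1 had log2 changes of 0.50, 0.36 and 0.55 in microglia, and none of the 3 was called.

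Of 14 nuclear speckle protein genes, 2 were called higher in microglia, Srrm2, a speckle scaffold (0.85 ± 0.25), and Srsf5, a splicing factor (1.57 ± 0.29). In NeuN+ nuclei 11 were called lower, and in Olig2+ nuclei Srsf2 and Srsf7 were called higher, beside shares of 12.8% higher, 55.1% lower and 16% higher over all start-site peaks of these tables. Their median changes were 0.33, -0.57 and 0.05. Nothing is called particular to either list beside the start-site background of each table.

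The genes around the locus within 100000 bp, 12 in number, were also more open at most of their start sites in microglia. Of 11 with a start-site peak, 7 were called higher and 0 lower, with a median log2 change of 1.06 against 0.20 over all start-site peaks. Of their 50 microglial peaks 11 were called higher, with log2 changes up to 1.78, and of the 11 peaks named for mascRNA 1 was. Of all microglial peaks, at start sites or not, 5.05% were called higher. In NeuN+ nuclei 6 of 11 neighbouring start-site peaks were called lower, and in Olig2+ nuclei 1 of 12 was called higher and 1 lower. Over all start-site peaks, 12.8% were called higher in microglia, 55.1% lower in NeuN+ nuclei, and 16% higher and 7.69% lower in Olig2+ nuclei.

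Over the 12 libraries, the start-site peaks most like that of Malat1 among 7169 genes were those of Socs6 (Pearson r = 0.979), Slc25a17 (0.970) and Dcbld2 (0.967). Those most like Frmd8 were Kcnab3 (0.988), BC031181 (0.985) and Sfxn4 (0.985). These correlations are over log2(tags + 1), are a description of 6 groups of libraries and share depth and the share of tags in peaks.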

How the data were processed

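ATAC-seq was measured in 12 libraries. The submitters' processing notes name the mm10 build, Bowtie2 and HOMER; versions, read shifting and the treatment of duplicates are not given in these sources. The authors' deposit holds 1 peak table per sort, with the signal in each peak as tags scaled to 10000000 per library per the file headers, and the authors' Peak Score, a score that was not used. Undoing the scaling with the totals in the headers gave whole reads for 100% of values, within 0.02. Symbols that had become dates (169, 202 and 168 peaks) were restored from Entrez numbers. Start-site peaks are the nearest within 1000 bp.

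For each table, log2(tags + 1) was compared between genotypes with limma 3.58.1 in R 4.3.3 (lmFit, eBayes with trend, two-sided, no covariate, no filter), adjusted by Benjamini-Hochberg over the table. The pseudocount understates changes of low peaks. Peaks that overlapped reciprocally by 50%, one-to-one, in 3 tables entered 1 model of 12 libraries for contrasts of WT groups. Alternatives, 14 per table, were a pseudocount of 0.5 or 5, a fit without the lowest 25% of peaks, within-peak, median-of-ratios and quantile scaling, a block for the replicate number, tests of the recovered reads by edgeR 4.0.16 and by DESeq2 1.42.0, an adjusted p under 0.01, and leaving out each library. A 25% overlap was tried for matching.

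The members and lists were chosen with earlier results of these data known. By the rule for named peaks, values per library are given for start-site peaks and for the most positive and most negative change in each table; the tallest peak of each Neat1 segment in microglia and other peaks singled out in the text were chosen after their values were seen. Neighbours are the genes of all other peaks within 100000 bp, and likeness is Pearson's r over 12 libraries, for which Neat1 had no matched start-site peak. Promoter sequences are from RefSeq (GRCm38.p6) and were matched for 2 of 3 members.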

Additional observations from a re-analysis of the deposited data

Results flagged for a closer look

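At the matched member peaks listed here, both SgshKO libraries lay above both WT libraries in microglia and below both in a nuclei sort. How many of all matched peaks do so was not counted, so nothing is read from the number of members. The difference between the sorts' genotype changes is given on the log2 scale as microglia minus the other sort, and it was not tested. Distances are those of the microglia table.

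Against NeuN+ nuclei, the difference was 3.83 at the Neat1 peak at the end of the short isoform (3291 bp), 1.95 at the Neat1 peak at -4530 bp and 1.37 at that at -4818 bp. For Malat1 it was 0.88 in the exon (2491 bp), 1.79 at -871 bp, 2.16 at -13420 bp and 1.97 at -15418 bp, and for the Frmd8 start-site peak it was 2.44. The Malat1 exon peak was called in neither sort, at 0.35 ± 0.41 in microglia and -0.52 ± 0.34 in NeuN+ nuclei.

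Against Olig2+ nuclei, the difference was 2.10 at the upstream Neat1 peak (-1300 bp), 1.70 at -4530 bp and 1.03 at -4818 bp, where the microglial change is 0.12 without SgshKO replicate 1. For Malat1 it was 1.04 at -871 bp and 2.03 at -13420 bp, and for the Frmd8 start-site peak it was 1.51. Live sorted microglia and fixed nuclei also differ in the share of tags in peaks and in their median changes over all peaks, and the part of these in the differences was not tested.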

How the results depend on the processing

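The number of member peaks called was 43 in microglia and 26 to 49 when each library was left out, with 34 to 48 under the other alternatives. In NeuN+ nuclei it was 10, and 6 after quantile normalization, 1 with DESeq2 and 0 to 6 without a library. In Olig2+ nuclei it was 17, and 2 with DESeq2, 7 at an adjusted p under 0.01 and 5 to 16 without a library. The cause of these differences was not tested. Over peaks, deviations from the group mean were hardly correlated between same-numbered libraries (r = 0.042, 0.0036 and 0.00069). This measure leaves out a shift common to all peaks, and the labels state no pairing, so whether the numbers pair the libraries is not settled. In microglia, replicate 1 had the higher share of tags in peaks in both genotypes. With the replicate number as a block, 48, 11 and 18 members were called, and 14489 peaks of the whole microglia table against 6765 without it.

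Between WT sorts, the Frmd8 start-site difference turned to -0.41 (microglia against NeuN+) and -0.0593 (against Olig2+) with within-peak scaling. That of the Malat1 start site against Olig2+ turned to -0.18 with within-peak scaling and -0.0243 with quantile normalization, and that of the upstream Neat1 peak to 0.0822 with quantile normalization, and it ran from -0.28 to 0.18 without a library, positive without microglia WT replicate 2. The cause was not tested. With 2 libraries a group and few reads in low peaks, changes at the far end of Neat1 are the least precise.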

Other observations

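Among 2367 genes with at least 10 peaks in the microglia table, Neat1 had the highest share of peaks called higher in SgshKO, 92.1% (35 of 38). The next were 4933427D06Rik with 84.6% (11 of 13), Cxcr4, a chemokine receptor, with 80% (8 of 10), Rftn1, a lipid raft protein, with 69.0% (20 of 29) and Lncpint, a long noncoding RNA, with 53.7% (22 of 41). Their median log2 changes were 2.66 for Neat1, 2.40 for 4933427D06Rik, 1.88 for Cxcr4, 2.06 for Rftn1 and 1.21 for Lncpint. These genes were ranked by the measured contrast, so the order is a description and carries no test.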
